A study of Mus musculus with 12 samples.

Results

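ADAMTS proteases were followed in cultured mouse ear fibroblasts as 9 genes, Adamts1, Adamts2, Adamts4, Adamts5, Adamts7, Adamts9, Adamts10, Adamts12 and Adamts15, taken by symbol from a table of 33246 genes. All 9 were in the table and all 9 were among the 14542 genes with enough counts to be tested, so none was too low to judge. RNA was sequenced from 12 samples, 3 in each of 4 groups, after 48 h on alginate hydrogels that carried the cell-adhesion peptide RGD. The 4 groups were covalently crosslinked gels with little stress relaxation (elastic) of 2 kPa and of 20 kPa, and ionically crosslinked, slow-relaxing gels (viscoelastic) of 2 kPa and of 20 kPa. All groups held passage 2 cells, for which the labels name no added reprogramming factor. The study isolated ear fibroblasts from C57BL/6 mice of 1 month, male and female, and from Tau-EGFP reporter mice, and the labels do not say which of these gave the RNA. The samples of a group are named biological replicates, with no word on whether they came from separate animals, so the p-values below measure the spread between these samples.

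ADAMTS proteases are secreted zinc metalloproteases built from a catalytic domain, a disintegrin-like module and thrombospondin type 1 repeats that bind them to the extracellular matrix. Connective tissue cells use them to cut large proteoglycans such as aggrecan and versican, to trim procollagens before fibrils form, and to build fibrillin microfibrils. They are made as inactive proenzymes, activated by furin-like proprotein convertases, and held in check by tissue inhibitors of metalloproteases. Counts of RNA show the transcript and say nothing of the activity of the enzyme.

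Each of the 9 members encodes the zinc-binding site of the catalytic domain. The coding sequence of this site is given here to show how alike the members are there. Each line holds 36 bases in the direction of transcription, read from 1 GENCODE coding transcript per gene on mm10. The capitals are the codons of the 3 histidines that hold the zinc ion and of the catalytic glutamate.
Adamts1: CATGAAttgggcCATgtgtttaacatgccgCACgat
Adamts4: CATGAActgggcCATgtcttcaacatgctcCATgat
Adamts9: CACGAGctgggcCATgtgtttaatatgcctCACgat
Adamts15: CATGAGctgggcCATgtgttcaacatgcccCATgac
Adamts5: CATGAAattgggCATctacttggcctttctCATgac
Adamts2: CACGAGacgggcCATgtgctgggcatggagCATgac
Adamts10: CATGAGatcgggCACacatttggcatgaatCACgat
Adamts7: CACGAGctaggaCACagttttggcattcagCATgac
Adamts12: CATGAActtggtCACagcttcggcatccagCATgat
In every member an intron splits this stretch, for example between exons 8 and 9 of Adamts9, where its ends lie at chr6:92905282-92908493 on the minus strand, and between exons 2 and 3 of Adamts15, at chr9:30911252-30911690 on the minus strand. The eighth codon, between the last 2 histidine codons, encodes asparagine in 4 members, Adamts1, Adamts4, Adamts9 and Adamts15, and glycine in the other 5. Adamts1, Adamts9 and Adamts15 encode the same 12 residues, with 30 or 31 of 36 bases in common between any 2 of them, and Adamts4 shares 11 of 12 residues with each. Adamts7 and Adamts12 also encode the same 12 residues, with 28 of 36 bases in common. Adamts5, a proteoglycan-cutting enzyme like the first 4, shares 6 of 12 residues with Adamts1, Adamts9 and Adamts15.

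Totals per sample ran from 36626221 to 43612804 counts. Replicate pairs differed by 11.2 to 55.5 times the variance of counting alone, as the mean chi-squared over genes. Levels below are CPM, the usual share of a gene in the library total, with totals scaled by the trimmed mean of M-values (TMM), and only values named as per kilobase of exon are compared between genes. The labelled cell type was checked with 11 fibroblast markers, which were all detected and summed to between 24468 and 29935 CPM. The 7 chondrocyte markers summed to between 4569 and 6661 CPM, with Col2a1 at a mean of 2839 CPM, Acan at 1139 and Sox9 at 440, while Matn1 did not pass 0.187 CPM in any sample. The ear contains cartilage, and in bulk RNA fewer cells of a type and less RNA per cell cannot be told apart. Of the other markers, the sum of 4 mural genes was 280 to 553 CPM, nearly all from Cspg4, and of the Schwann cell genes S100b was at 39.96 to 89.2 CPM and Sox10 at a mean of 0.286 CPM. Marker lists of keratinocytes, endothelial, immune, skeletal muscle cells and melanocytes each stayed at or below 8.02 CPM in sum, with Myf5 and Tyr at 0 throughout.

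Per kilobase of exon, Adamts1 had the highest mean level over the 12 samples at 18.5 CPM, followed by Adamts2 at 12.8, Adamts5 at 8.83, Adamts4 at 5.52, Adamts10 at 4.84, Adamts9 at 3.80 and Adamts12 at 2.48. Adamts7 and Adamts15 were the lowest at 0.995 and 0.673 CPM per kilobase. Mean counts per sample ran from 259 for Adamts7 to 4963 for Adamts2. The spread between replicates equals counting noise at 178 counts, and all 9 means lay above it. For Adamts7 and Adamts15, with 184 and 147 counts in their lowest sample, counting noise is nearest to that spread. Of the 10 other ADAMTS genes, Adamts16 at 5.54 and Adamts6 at 3.49 CPM per kilobase were within the range of the 9. Adamts8, Adamts13 and Adamts19, with a mean of 3.25 counts or fewer, were too low to test, and Adamts3, Adamts14, Adamts17, Adamts18 and Adamts20 were tested at means of 16 to 159 counts, below the counting limit.

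**Figure D1:**
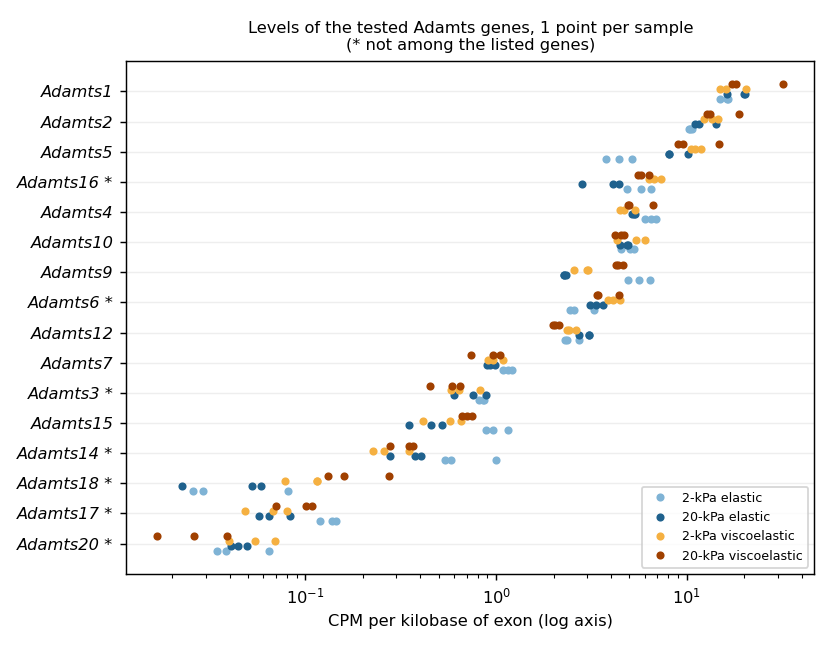
Level of the 16 tested ADAMTS genes in each of the 12 samples, as CPM per kilobase of exon on a log axis, ordered by mean; colours mark the 4 groups and asterisks the genes outside the 9. Adamts1, with a mean of 18.5, is at the top, and Adamts15, with a mean of 0.673, is the lowest of the 9.

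Viscoelasticity and stiffness were compared at matched levels of the other: viscoelastic against elastic gels at each stiffness, and 20 against 2 kPa on each gel type. The gel types also differed in crosslinker, calcium being used for the viscoelastic gels, and stiffness was set by crosslinker concentration. The design cannot tell these apart from stress relaxation and stiffness. A gene was called when its adjusted p in edgeR's quasi-likelihood test, with Benjamini-Hochberg adjustment over all 14542 genes, was under 0.05. At 2 kPa, 5 of the 9 members were called on viscoelastic against elastic gels, where 19.9% of all tested genes were. Adamts2 and Adamts5 were higher, against 8.77% of all genes called higher, and Adamts4, Adamts9 and Adamts15 were lower, against 11.1%. At 20 kPa, 3 of 9 were called, near the 33.5% of all genes, with Adamts9 and Adamts15 higher (17.4% of all genes) and Adamts12 lower (16.1%). From 2 to 20 kPa, 4 of 9 were called on elastic gels, where 14% of all genes were, with Adamts5 and Adamts12 higher and Adamts9 and Adamts15 lower. On viscoelastic gels 1 of 9 was called, Adamts9, where 2.28% of all genes were. A comparison of gel types and one of stiffness share the samples of 1 group, so these counts are not independent of each other.

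The sizes of change among the 9 were larger than in the table as a whole in the median. At 2 kPa their median absolute log2 fold change between gel types was 0.37, against 0.15 over all tested genes, and at 20 kPa it was 0.28 against 0.19. Between stiffnesses it was 0.29 against 0.13 on elastic and 0.23 against 0.11 on viscoelastic gels. The members were chosen with earlier results of these data known, so neither these sizes nor the numbers called test whether the family changed more than other genes. The median signed change stayed near 0 in 3 of the 4 comparisons, at 0.00, -0.06 and 0.14, and was 0.26 for viscoelastic against elastic gels at 20 kPa, where 6 of 9 members lay above 0. The members thus did not move 1 way as a group. Averaged over both stiffnesses, 3 of 9 were called for gel type, where 40% of all genes were: Adamts2 and Adamts5 were higher on viscoelastic gels and Adamts12 was lower. The interaction, which asks whether the stiffness effect differed between gel types, was called for 4 of 9, where 7.56% of all genes were: Adamts5, Adamts9, Adamts12 and Adamts15.

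**Figure D2:**
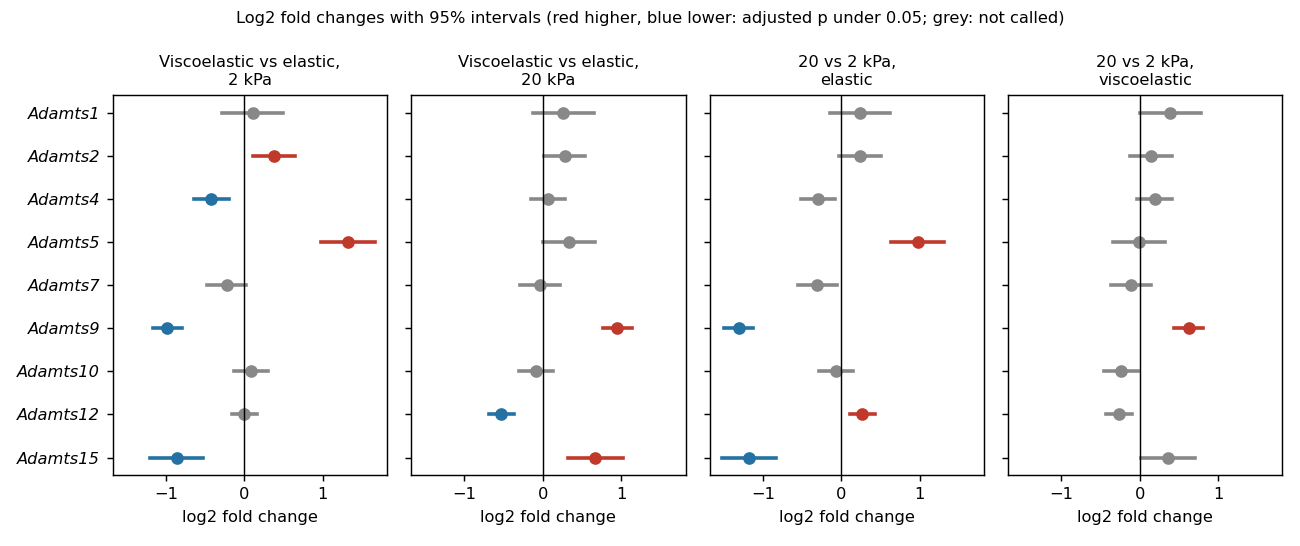
Log2 fold changes of the 9 genes in the 4 comparisons (points) with 95% confidence intervals (lines), 3 samples a group; red and blue mark genes called higher and lower, grey those not called. Adamts9 is called in all 4 panels, at -0.98, 0.95, -1.31 and 0.63, while Adamts1, Adamts7 and Adamts10 are grey in all 4.

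Adamts9, a versican- and aggrecan-cutting protease, was the only member in which no 2 of the 4 groups overlapped. The gene lies at chr6:92772699-92943492 on the minus strand, with 40 exons in the coding transcript read here. On 2-kPa elastic gels its level was 96.4, 84.5 and 74.3 CPM, and on 20-kPa elastic gels 35.1, 34.0 and 34.0 CPM. On viscoelastic gels it was 38.5, 45.5 and 45.0 CPM at 2 kPa and 64.2, 70.0 and 65.2 CPM at 20 kPa. The order from high to low was 2-kPa elastic, 20-kPa viscoelastic, 2-kPa viscoelastic and 20-kPa elastic. At 2 kPa the viscoelastic level was 1.98-fold lower than the elastic level (log2 fold change -0.98, SE 0.0858, adjusted p = 1.00e-05 in edgeR's test). At 20 kPa it was 1.93-fold higher (log2 0.95, SE 0.0866, adjusted p = 7.50e-05 in edgeR's test). Stiffening of elastic gels went with a 2.47-fold lower level (log2 -1.31, SE 0.0868, adjusted p = 1.41e-06 in edgeR's test), and stiffening of viscoelastic gels with a 1.54-fold higher level (log2 0.63, SE 0.0857, adjusted p = 0.00473). The effect of stiffness therefore had opposite signs on the 2 gel types, and the interaction was 1.93 on the log2 scale (SE 0.122, adjusted p = 1.35e-06), with the lowest p of all 14542 genes tested. Averaged over both stiffnesses the gel types differed by -0.02 on the log2 scale (95% interval -0.15 to 0.11).

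Of the exonic bases of Adamts9, 1805 overlap 2 genes on the opposite strand, A730049H05Rik and Gm15737. Since the strand setting of the counting is not given in the sources used here, reads of these genes and of Adamts9 could be exchanged or dropped. The 2 genes had at most 15 and 3 counts in a sample, and Adamts9 at least 1381.

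Adamts15, an aggrecanase whose zinc site encodes the same residues as that of Adamts9, followed the same order at a lower level. It lies at chr9:30899155-30922452 on the minus strand. On elastic gels of 2 kPa it was read at 11.9, 9.99 and 9.12 CPM, and on those of 20 kPa at 5.37, 4.74 and 3.62 CPM. On viscoelastic gels the level was 4.30, 6.80 and 5.97 CPM at 2 kPa and 7.28, 7.77 and 6.82 CPM at 20 kPa. All 3 samples on 2-kPa elastic gels lay above every other sample, and the 2-kPa viscoelastic and 20-kPa elastic groups overlapped. Between gel types the level was 1.82-fold lower at 2 kPa (log2 -0.87, SE 0.159, adjusted p = 0.00193 in edgeR's test) and 1.59-fold higher at 20 kPa (log2 0.67, SE 0.165, adjusted p = 0.00650). On elastic gels it fell 2.26-fold from 2 to 20 kPa (log2 -1.17, SE 0.162, adjusted p = 3.32e-04). On viscoelastic gels the log2 difference of 0.36 (95% interval 0.01 to 0.71) was not called (adjusted p = 0.240 in edgeR's test), although the 2 groups did not overlap, at 6.80 CPM for the highest 2-kPa and 6.82 for the lowest 20-kPa sample. The interaction was 1.53 on the log2 scale (SE 0.229, adjusted p = 9.29e-04). The neighbouring ADAMTS gene, Adamts8, starts 20109 bases away on the opposite strand and was too low to test.

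The likeness of these 2 profiles was measured as the root mean square difference of log2 CPM, each centred on its own mean, over the 12 samples. Adamts15 was the second nearest to Adamts9 of all tested genes, at 0.177, and the nearest was Chst2, a carbohydrate sulfotransferase, at 0.0875. From Adamts15, the nearest were Chst2 at 0.141 and St8sia2, a sialyltransferase, at 0.145. The profile of Adamts9 itself had a root mean square of 0.519. The 12 points share their libraries and scaling, and the likeness is a description.

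**Figure D3:**
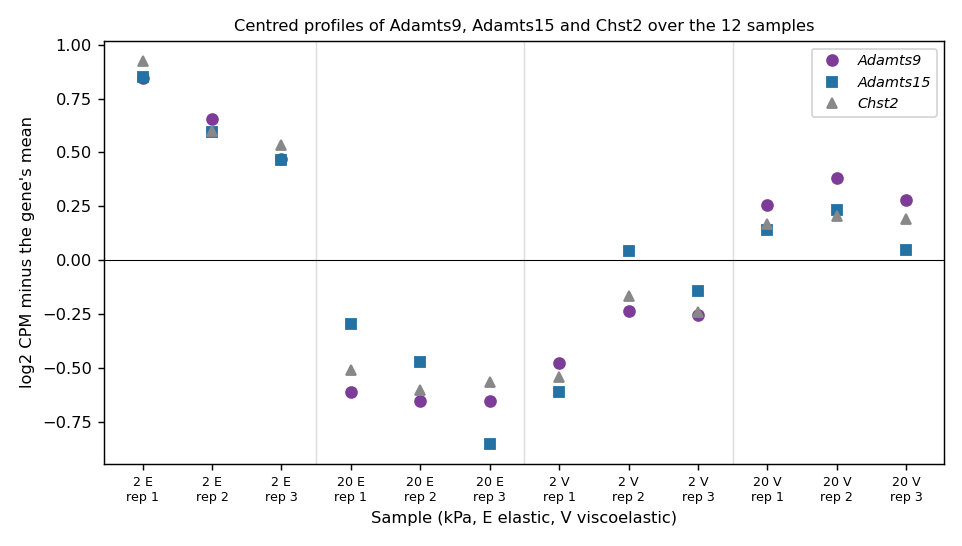
Log2 CPM of Adamts9, Adamts15 and Chst2 in each of the 12 samples, each gene centred on its own mean. All 3 genes are highest on 2-kPa elastic gels and lie above their mean on 20-kPa viscoelastic gels, and the root mean square difference from Adamts9 is 0.0875 for Chst2 and 0.177 for Adamts15.

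Among markers of other cell types, S100b moved with this pattern, and the mural and endothelial lists differed. Calls in the chondrocyte list had the signs of Adamts9, except between stiffnesses on viscoelastic gels, where there was none. S100b, made by Schwann cells and also by chondrocytes, was read at 70.9 to 73.3 CPM on 2-kPa elastic, 39.96 to 44.1 on 20-kPa elastic, 49.3 to 58.3 on 2-kPa viscoelastic and 67.9 to 89.2 on 20-kPa viscoelastic gels. It was called in the same directions as Adamts9 in all 4 comparisons, at log2 -0.38 and 0.94 for gel type at 2 and 20 kPa, and at -0.76 and 0.57 for stiffness on elastic and viscoelastic gels. The Schwann cell factor Sox10 stayed between 0.187 and 0.524 CPM. The chondrocyte list summed to 5355 to 6661 CPM on 2-kPa elastic, 4569 to 4704 on 20-kPa elastic, 4807 to 6129 on 2-kPa viscoelastic and 4773 to 6261 on 20-kPa viscoelastic gels. Of its 7 genes 6 could be tested. Of these, 4 were lower on 20- than on 2-kPa elastic gels, 2 were lower and none higher on viscoelastic gels at 2 kPa, and 2 were higher and none lower at 20 kPa. Between stiffnesses on viscoelastic gels, where Adamts9 was called higher, none of the 6 was called. Of all tested genes, 14% were called between stiffnesses on elastic and 2.28% on viscoelastic gels. On viscoelastic against elastic gels, 8.77% were called higher and 11.1% lower at 2 kPa, and 17.4% higher and 16.1% lower at 20 kPa. The 4 mural genes summed to 472 to 553 CPM on 2-kPa elastic, 375 to 509 on 20-kPa elastic, 323 to 335 on 2-kPa viscoelastic and 280 to 336 on 20-kPa viscoelastic gels. On viscoelastic gels 2 of them were lower and 1 higher at 2 kPa, and 2 were lower and none higher at 20 kPa. The endothelial list, at most 3.51 CPM in sum, had 2 genes higher on viscoelastic gels at 2 kPa and 2 higher on 20- than on 2-kPa elastic gels. The part of any of these cells in the levels of Adamts9 and Adamts15 was not tested.

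Adamts5, a main aggrecanase of cartilage, showed the opposite pattern on elastic gels. It lies at chr16:85856173-85901828 on the minus strand. On elastic gels its level was 40.9, 55.6 and 47.4 CPM at 2 kPa and 109, 87.3 and 86.8 CPM at 20 kPa. On viscoelastic gels it was 118, 128 and 113 CPM at 2 kPa and 96.4, 158 and 103 CPM at 20 kPa. The 3 samples on 2-kPa elastic gels were the lowest of the 12, with no overlap with any other group. At 2 kPa the level was 2.5-fold higher on viscoelastic gels (log2 1.32, SE 0.160, adjusted p = 1.01e-04 in edgeR's test), and on elastic gels it was 1.97-fold higher at 20 than at 2 kPa (log2 0.98, SE 0.160, adjusted p = 0.00116). At 20 kPa the gel types differed by 0.33 on the log2 scale (95% interval 0.00 to 0.67) and were not called (adjusted p = 0.111 in edgeR's test). On viscoelastic gels the stiffness effect was -0.01 (95% interval -0.34 to 0.32, adjusted p = 0.981). The interaction was -0.99 on the log2 scale (SE 0.222, adjusted p = 0.0139).

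One library, the second replicate on 20-kPa viscoelastic gels, stood high for Adamts5, with 158 CPM against 96.4 and 103 CPM in its group. It was the highest of its group for 8 of the 9 members, and the second replicate on 2-kPa viscoelastic gels was likewise for 8 of 9. Without the former, Adamts5 was 0.08 higher on viscoelastic gels at 20 kPa on the log2 scale (adjusted p = 0.669), the stiffness effect on viscoelastic gels was -0.27 (adjusted p = 0.240) and the interaction was -1.25 (adjusted p = 3.92e-04 in edgeR's test). Without the first replicate on 20-kPa viscoelastic gels, the difference at 20 kPa was 0.47 and was called (adjusted p = 0.0406 in edgeR's test). The difference at 2 kPa kept its call under each of the 19 alternatives tried.

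**Figure D4:**
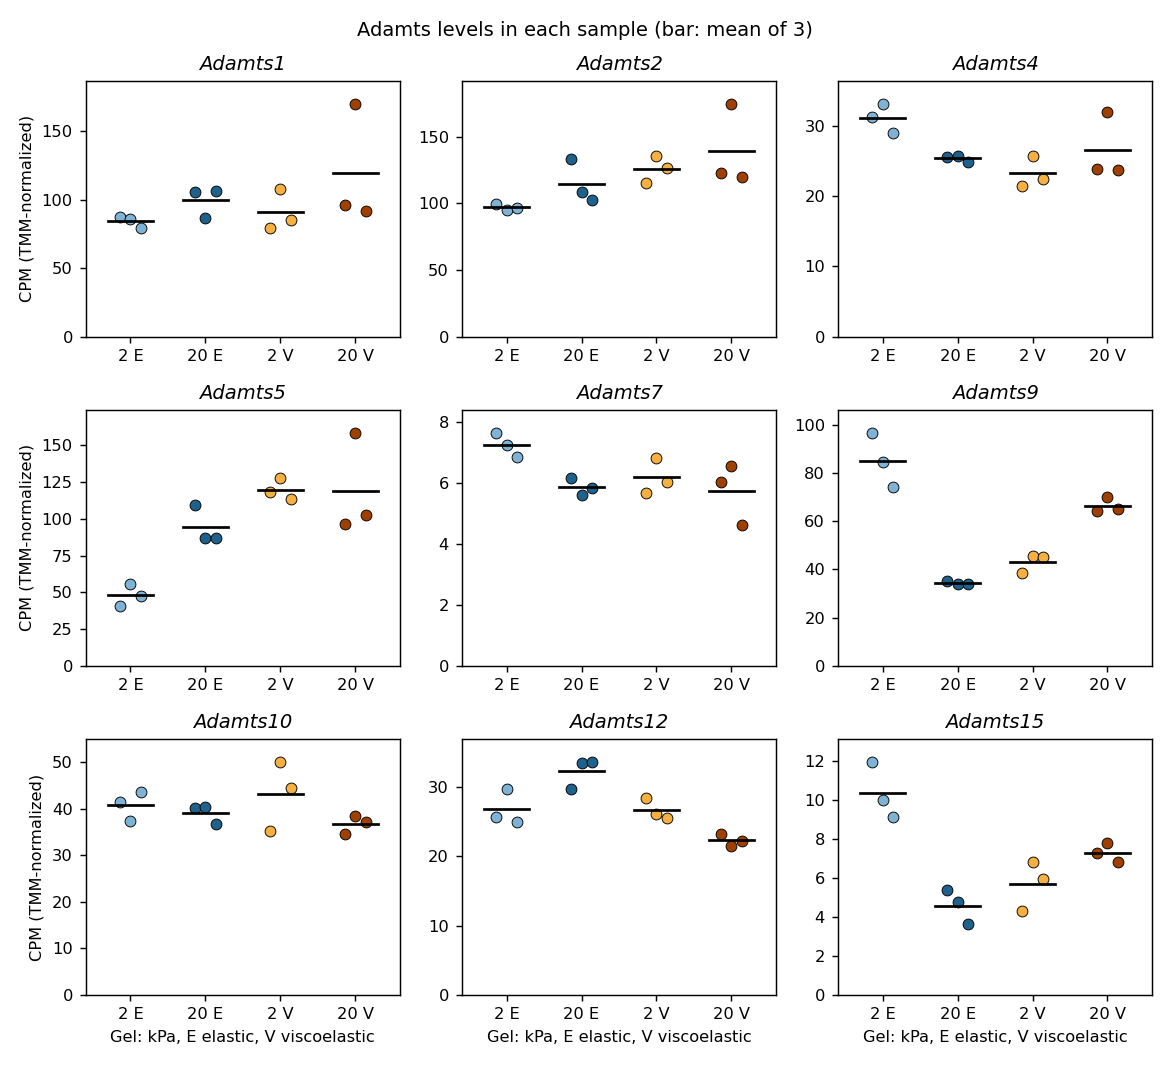
TMM-normalized CPM of each of the 9 genes in the 12 samples (points) with the mean of each group of 3 (bars), on axes from 0. The 2-kPa elastic samples are the highest for Adamts9 and Adamts15, at 74.3 CPM or more and 9.12 CPM or more, and the lowest for Adamts5, at 55.6 CPM or less.

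Adamts1 and Adamts4 complete the proteoglycan-cutting members. Adamts1 lies 53059 bases from Adamts5 on the same strand, at chr16:85793827-85803113, and did not share its pattern. The elastic gels gave 87.5, 85.7 and 79.1 CPM at 2 kPa and 105, 86.3 and 106 CPM at 20 kPa. The viscoelastic gels gave 79.2, 108 and 85.2 CPM at 2 kPa and 95.9, 170 and 91.9 CPM at 20 kPa. All pairs of groups overlapped in the 4 comparisons, and no comparison was called. The widest difference, 0.39 on the log2 scale between stiffnesses on viscoelastic gels (95% interval 0.01 to 0.78, adjusted p = 0.253 in edgeR's test), was 0.05 without the second replicate on 20-kPa viscoelastic gels. Without that library the difference between gel types at 20 kPa changed from 0.26 to -0.08, and the interaction from 0.15 to -0.19.

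Adamts4 lies at chr1:171250421-171260637 on the plus strand and was highest on 2-kPa elastic gels, with 31.2, 33.1 and 28.9 CPM. Elastic gels of 20 kPa gave 25.5, 25.7 and 24.9 CPM. The viscoelastic gels gave 21.5, 25.7 and 22.5 CPM at 2 kPa and 23.9, 31.9 and 23.7 CPM at 20 kPa. Elastic and viscoelastic samples did not overlap at 2 kPa, where the level was 1.34-fold lower on viscoelastic gels (log2 -0.42, SE 0.102, adjusted p = 0.0101 in edgeR's test). At 20 kPa the difference was 0.06 (95% interval -0.15 to 0.28), and -0.09 without the second replicate on 20-kPa viscoelastic gels. The fall with stiffness on elastic gels, -0.29 on the log2 scale, was not called (adjusted p = 0.0698 in edgeR's test) although the groups did not overlap, and it was called without that library (adjusted p = 0.0140) and without the second replicate on 2-kPa viscoelastic gels (adjusted p = 0.0492). The interaction of 0.48 was not called either (adjusted p = 0.0551 in edgeR's test). It was called at 0.56, 0.55 and 0.56 when the second replicate on 2-kPa viscoelastic, or replicate 1 or 3 on 20-kPa viscoelastic gels, was left out (adjusted p of 0.0277, 0.0460 and 0.0436). Averaged over both stiffnesses, the difference of -0.18 was not called (adjusted p = 0.0628), but was at -0.22 without the second replicate on 2-kPa (adjusted p = 0.0265) and at -0.26 without that on 20-kPa viscoelastic gels (adjusted p = 0.00254). Across all alternatives, the stiffness effect on elastic gels was called in 5 of 19, the interaction in 6 of 18 and the averaged difference in 5 of 18. With a sample left out, their adjusted p in edgeR's test reached 0.208, 0.124 and 0.154. The interaction was lowest, at 0.33, without the second replicate on 20-kPa viscoelastic gels. The nearest profile to Adamts4 was that of Mmp14, a membrane-bound matrix metalloprotease, at a root mean square difference of 0.0863 in log2 CPM over the 12 samples.

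Adamts2 removes the amino-terminal propeptide from fibrillar procollagens. It lies at chr11:50602084-50807573 on the plus strand. On elastic gels it was read at 99.6, 95.4 and 96.8 CPM at 2 kPa and at 133, 108 and 102 CPM at 20 kPa. The viscoelastic gels gave 115, 136 and 127 CPM at 2 kPa and 123, 174 and 120 CPM at 20 kPa. The 2-kPa elastic samples were the lowest, with no overlap with the 20-kPa elastic or the 2-kPa viscoelastic group. At 2 kPa it was 1.29-fold higher on viscoelastic gels (log2 0.37, SE 0.126, adjusted p = 0.0488 in edgeR's test). The call was close to the threshold: it was lost when any of the 3 samples on 2-kPa elastic gels, replicate 2 or 3 on 2-kPa viscoelastic or replicate 2 on 20-kPa elastic gels was left out, at differences of 0.31 to 0.39 and adjusted p of 0.0594 to 0.131 in edgeR's test. Averaged over both stiffnesses the difference was 0.33 (SE 0.0887, adjusted p = 0.00915), and it was called in all 18 alternatives. At 20 kPa it was 0.28 (adjusted p = 0.10 in edgeR's test), which was 0.08 without the second replicate on 20-kPa viscoelastic gels and was called at 0.38 without the first replicate on 20-kPa elastic gels (adjusted p = 0.0353). Without that viscoelastic library the stiffness effect on viscoelastic gels also changed sign, from 0.14 to -0.05.

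Of the 6 fibrillar procollagens listed with it, none was called at 2 kPa or between stiffnesses, and at 20 kPa Col3a1 was higher (log2 0.26, adjusted p = 0.0419 in edgeR's test) and Col5a1 lower (log2 -0.40, adjusted p = 0.00166) on viscoelastic gels. Of all tested genes, 19.9% were called between gel types at 2 kPa and 33.5% at 20 kPa. Between stiffnesses 14% were called on elastic and 2.28% on viscoelastic gels. Among the other enzymes and enhancers of procollagen processing, 4 of 7 could be tested. Tll1, a tolloid protease that removes the carboxy-terminal propeptide, was lower on viscoelastic gels at 20 kPa (log2 -0.74, adjusted p = 6.35e-04 in edgeR's test), and Bmp1 and Pcolce were called in none of the 4 comparisons. Adamts14, which also removes amino-terminal propeptides, was lower on viscoelastic gels at 2 kPa (log2 -1.35, SE 0.241, adjusted p = 0.00162), with a mean of 89.3 counts over the 12 samples.

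Adamts12 and Adamts7 share a mucin-like domain and both cut the cartilage oligomeric matrix protein. Adamts12 lies at chr15:11064790-11349231 on the plus strand. On elastic gels it was read at 25.8, 29.7 and 25.0 CPM at 2 kPa and at 29.8, 33.5 and 33.6 CPM at 20 kPa. The viscoelastic gels gave 28.5, 26.2 and 25.6 CPM at 2 kPa and 23.2, 21.6 and 22.2 CPM at 20 kPa. The 20-kPa elastic samples were the highest and the 20-kPa viscoelastic samples the lowest, and both 2-kPa groups overlapped in between. At 20 kPa the level was 1.45-fold lower on viscoelastic gels (log2 -0.53, SE 0.0755, adjusted p = 2.04e-04 in edgeR's test), while at 2 kPa the difference was 0.00 (95% interval -0.16 to 0.16). On elastic gels it was 1.20-fold higher at 20 kPa (log2 0.27, SE 0.0750, adjusted p = 0.0274 in edgeR's test). That call was lost at 0.22 to 0.24 without replicate 1 or 3 on 2-kPa elastic or replicate 2 or 3 on 20-kPa elastic gels (adjusted p of 0.0975 to 0.112). On viscoelastic gels the change of -0.26 was not called (adjusted p = 0.0806 in edgeR's test). The interaction was -0.53 (SE 0.107, adjusted p = 0.0075), of the opposite sign to that of Adamts9.

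Adamts7 lies at chr9:90163069-90208071 on the plus strand, was read at 4.62 to 7.62 CPM and was called in no comparison. On elastic gels it was 7.62, 7.22 and 6.84 CPM at 2 kPa and 6.16, 5.61 and 5.82 CPM at 20 kPa, which did not overlap, with a log2 difference of -0.30 (95% interval -0.56 to -0.05, adjusted p = 0.107 in edgeR's test). It was 5.68, 6.82 and 6.04 CPM on 2-kPa and 6.01, 6.55 and 4.62 CPM on 20-kPa viscoelastic gels. Of its exonic bases, 122 overlap Tbc1d2b on the opposite strand, which had at least 3338 counts in each sample. The substrate gene Comp was higher on viscoelastic gels at 20 kPa (log2 0.64, adjusted p = 0.00175 in edgeR's test) and stood at 0.30 at 2 kPa (adjusted p = 0.111).

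Adamts10, which binds fibrillin-1 and takes part in the assembly of microfibrils, had the smallest ratio between its highest and lowest group mean among the 9, at 1.18. It lies at chr17:33524204-33553782 on the plus strand. The elastic gels gave 41.5, 37.3 and 43.7 CPM at 2 kPa and 40.1, 40.3 and 36.6 CPM at 20 kPa. The viscoelastic gels gave 35.3, 49.97 and 44.4 CPM at 2 kPa and 34.6, 38.5 and 37.1 CPM at 20 kPa. All 4 comparisons overlapped and none was called, and the intervals of the gel-type differences were -0.13 to 0.30 at 2 kPa and -0.30 to 0.13 at 20 kPa on the log2 scale. At 2 kPa the difference was 0.08, and -0.03 without the second replicate on 2-kPa viscoelastic gels. Of the 8 genes of fibrillin microfibrils, 5 were lower and 1, Fbln1, higher on viscoelastic gels at 2 kPa, and 4 were lower and none higher at 20 kPa, with medians of -0.28 and -0.21 against 0.00 and 0.02 over all tested genes. Of all tested genes, 11.1% and 16.1% were called lower in these comparisons. Fbn1, which encodes fibrillin-1, was lower at both stiffnesses (log2 -0.29 and -0.31, adjusted p = 0.0303 and 0.0143 in edgeR's test), as was Fbn2 (log2 -0.49 and -0.28, adjusted p = 4.15e-04 and 0.00726).

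**Figure D5:**
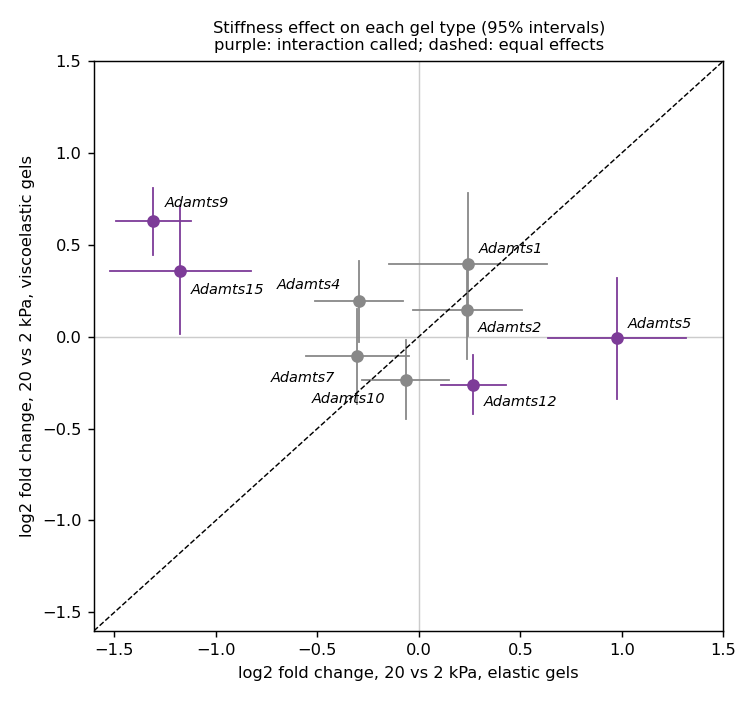
Log2 fold change from 2 to 20 kPa on elastic gels (horizontal) against that on viscoelastic gels (vertical) for each of the 9 genes, with 95% intervals; purple marks a called interaction and the dashed line equal effects. Adamts9 (-1.31 and 0.63) and Adamts15 (-1.17 and 0.36) lie above the line, and Adamts5 (0.98 and -0.01) and Adamts12 (0.27 and -0.26) lie below it.

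The proteoglycan substrates, listed together with Comp, did not follow 1 direction. Of 8 listed genes 7 were tested: at 2 kPa Acan and Cspg4 were lower on viscoelastic gels, and at 20 kPa Bgn, Dcn and Comp were higher and Vcan and Cspg4 lower. Of all tested genes, 19.9% were called between gel types at 2 kPa and 33.5% at 20 kPa. Acan, the gene of aggrecan, was at 1456 ± 165 CPM (SD, n = 3) on 2-kPa elastic gels and between 1020 and 1053 CPM in the mean of the other groups (log2 -0.47 between gel types at 2 kPa, adjusted p = 0.00847 in edgeR's test). Vcan, the gene of versican, was at 357 ± 9.87 CPM on viscoelastic and at 535 ± 11.5 CPM on elastic gels of 20 kPa (SD, n = 3; log2 -0.58, adjusted p = 5.29e-04 in edgeR's test).

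Of 7 tested inhibitors and uptake receptors of the family, 2 were called between gel types at 2 kPa and 3 at 20 kPa, where 19.9% and 33.5% of all tested genes were. Between stiffnesses 2 were called on elastic and 1 on viscoelastic gels, against 14% and 2.28% of all tested genes. Timp3, the main inhibitor of ADAMTS4 and ADAMTS5, was at 1759 ± 45.3 CPM on 2-kPa elastic, 1701 ± 48.6 on 20-kPa elastic, 1877 ± 176 on 2-kPa viscoelastic and 1446 ± 87.0 CPM on 20-kPa viscoelastic gels (SD, n = 3). It was called lower on the last group against both of its neighbours (log2 -0.23 against elastic gels, adjusted p = 0.0323, and -0.38 against 2 kPa, adjusted p = 0.0286, in edgeR's test). Timp1 was lower on viscoelastic gels at 20 kPa (log2 -0.56, adjusted p = 5.55e-04). Lrp1, the endocytic receptor that takes up Adamts4 and Adamts5, was lower on viscoelastic gels at 2 kPa (log2 -0.57, adjusted p = 0.00278 in edgeR's test). Timp4 had an interaction of 1.60 (SE 0.288, adjusted p = 0.00336 in edgeR's test), with group means of 1.1 to 2.38 CPM.

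Among 6 genes of proenzyme activation and of thrombospondin-repeat glycosylation, 3 were called between gel types at 2 kPa, where 19.9% of all tested genes were, and 3 at 20 kPa, where 33.5% were. Pcsk6, a proprotein convertase, was higher on viscoelastic gels at 2 kPa (log2 0.43, adjusted p = 9.78e-04 in edgeR's test) and lower at 20 kPa (log2 -0.39, adjusted p = 0.00102), with an interaction of -0.82. Furin was lower on viscoelastic gels at 2 kPa (log2 -0.29, adjusted p = 0.00764 in edgeR's test). Of the 7 ADAMTS-like genes, which lack the protease domain, 4 were called between gel types at 2 kPa and 3 at 20 kPa, against the same shares of all tested genes. Adamtsl4 was higher at 2 kPa (log2 0.47, adjusted p = 1.66e-04) and lower at 20 kPa (log2 -0.18, adjusted p = 0.0301), and Thsd4 was lower at 2 kPa (log2 -1.26, adjusted p = 0.00232 in edgeR's test). Of the 7 other ADAMTS genes that could be tested, 3 were called between gel types at 2 kPa, against 19.9% of all tested genes, and 2 at 20 kPa, which is no larger a share than the 33.5% of all tested genes. Adamts16 was lower on stiff than on soft elastic gels (log2 -0.58, adjusted p = 0.00953 in edgeR's test), and at 20 kPa viscoelastic gels gave the higher level (log2 0.63, adjusted p = 0.00248). Adamts6 was higher on viscoelastic gels at 2 kPa (log2 0.59, adjusted p = 0.00292 in edgeR's test). Adamts18 was higher at 20 kPa (log2 2.08, SE 0.395, adjusted p = 0.00124), with 10 to 118 counts in a sample.

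With library totals in place of TMM, the balance of all genes called moved. At 2 kPa the genes called higher and lower on viscoelastic gels went from 1275 and 1617 to 1675 and 1258, and averaged over both stiffnesses from 2846 and 2971 to 3538 and 2309, with medians of all genes of no more than 0.05 on the log2 scale. Between stiffnesses on viscoelastic gels a correction for exon length turned 230 higher and 101 lower into 90 and 73.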

How the data were processed

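Poly-A RNA of 12 samples was sequenced. Raw counts per gene symbol, deposited by the authors, came from featureCounts with a GENCODE annotation, after Trimmomatic and alignment with STAR to mm10. The annotation release, strand setting and handling of reads with several matches are not given in the sources used here. Totals were 36626221 to 43612804 counts, so a mean of 259 counts carries a counting error of 6.21%. Of the 33246 genes, 10097 had no count. Genes that passed filterByExpr (at least 10 counts at the median library size and 15 in total) were scaled by TMM and fitted with edgeR 4.0.16 (R 4.3.3), quasi-likelihood, with 1 coefficient per group and no covariate. The biological coefficient of variation was 7.50%. SEs were taken from the fold change and the F statistic, and calls were made at a Benjamini-Hochberg adjusted p under 0.05. DESeq2 1.42.0, other scalings, no filter, a replicate block, a correction for exon length, the 6 compared samples alone and each sample left out were alternatives.

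Positions, exon lengths and coding sequences came from a GENCODE annotation of GRCm38 (mm10) matched by symbol, with lengths for 13805 (94.9%) of the tested genes. All 9 members were named. Only some genes of each partner list were named. Some had a low adjusted p for gel type over both stiffnesses or were the ends of a range. Others, such as Pcsk6 and Timp4, were called not over both stiffnesses but in single comparisons and the interaction. Acan, Comp, Fbn1, Bmp1 and Pcolce were named as the partners of a named member. Further called genes of these lists were not named. The 2 genes nearest in profile were looked up for called members. The members and lists were chosen with earlier results of these data known. Results for some marker and neighbouring genes are not reported here. Other assays of the study were not analysed here.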

Additional observations from a re-analysis of the deposited data

Results flagged for a closer look

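The effect of stiffness differed between viscoelastic and elastic gels for 4 of the 9 genes, by the interaction term of edgeR's quasi-likelihood test over all 12 samples. The difference, viscoelastic minus elastic on the log2 scale, was 1.93 for Adamts9 (SE 0.122, adjusted p = 1.35e-06) and 1.53 for Adamts15 (SE 0.229, adjusted p = 9.29e-04). It was -0.99 for Adamts5 (SE 0.222, adjusted p = 0.0139) and -0.53 for Adamts12 (SE 0.107, adjusted p = 0.0075). Each was called in all 18 alternatives. The adjusted p ranged up to 2.09e-05 for Adamts9, 0.00335 for Adamts15, 0.0445 for Adamts5 and 0.0249 for Adamts12.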

How the results depend on the processing

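The number of the 9 genes called stayed within 1.5 times the reported one except in 3 cases: without a filter on low counts, 5 in place of 3 were called for gel type at 20 kPa and 3 in place of 1 for stiffness on viscoelastic gels, and DESeq2 called 2 in the last comparison. Over all tested genes that comparison varied most, with 331 called in the reported fit, 757 by DESeq2, 653 without a filter, 163 with the exon length correction, 154 with the replicate block and 38 from the 6 compared samples alone. With each sample left out, the number of members called ran from 4 to 5 for gel type at 2 kPa, 3 to 4 at 20 kPa, 3 to 5 for stiffness on elastic gels, 1 to 1 on viscoelastic gels, 3 to 4 for gel type over both stiffnesses and 4 to 5 for the interaction. The labels give replicate numbers 1 to 3 in each group. Of 18 same-numbered pairs, 2 correlated above 0.1 in their deviations from the group means (range -0.20 to 0.31). Both linked the 2 viscoelastic groups, at 0.18 for replicate 1 and 0.31 for replicate 2, with 0.05 for replicate 3. The reported fit did not read the numbers as pairs, and whether these viscoelastic libraries share an origin was not tested. With the replicate block 4, 3, 5, 1, 4 and 5 members were called in the 6 comparisons. Adamts2 at 2 kPa lost its call under that block (log2 0.37, adjusted p = 0.0535), and Adamts4 gained 3, for stiffness on elastic gels (-0.29, adjusted p = 0.0311), gel type over both stiffnesses (-0.18, adjusted p = 0.0201) and the interaction (0.48, adjusted p = 0.0254).

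All changes of sign concerned differences that were not called, and their cause was not tested. For Adamts12 at 2 kPa the log2 difference between gel types was 0.00078 with DESeq2, 0.0021 with its size factors in edgeR, 0.036 with library totals, 0.0046 without a filter, 0.097 with the exon length correction and 0.0074 from the 6 compared samples. With library totals and with the exon length correction, gel type gave 0.0038 and 0.025 for Adamts7 at 20 kPa, and over both stiffnesses 0.020 and 0.12 for Adamts9 and 0.034 and 0.080 for Adamts10. The exon length correction also gave 0.0011 for Adamts10 at 20 kPa, 0.0043 for Adamts15 over both stiffnesses and 0.038 for Adamts5 between stiffnesses on viscoelastic gels. It also reduced the called difference of Adamts12 over both stiffnesses from -0.27 to -0.16 (adjusted p = 0.0164 in edgeR's test). With each sample left out, gel type at 2 kPa ran from -0.032 to 0.20 for Adamts1, -0.034 to 0.21 for Adamts10 and -0.051 to 0.077 for Adamts12, and at 20 kPa from -0.081 to 0.42 for Adamts1, -0.092 to 0.14 for Adamts4 and -0.14 to 0.099 for Adamts7. Stiffness on viscoelastic gels ran from -0.053 to 0.24 for Adamts2, -0.27 to 0.12 for Adamts5 and -0.21 to 0.024 for Adamts7. Gel type over both stiffnesses ran from -0.062 to 0.032 for Adamts9 and -0.061 to 0.061 for Adamts10, and the interaction from -0.19 to 0.31 for Adamts1 and -0.29 to 0.0023 for Adamts2.

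With 3 samples a group, the 95% intervals of differences between 2 groups that were not called reached 0.78 on the log2 scale, for Adamts1 between stiffnesses on viscoelastic gels. The alternatives share the samples and the deposited counts, so none of them tests the read counting. Adamts7 and Adamts15 had the fewest counts and thus the most counting noise.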
